A study of Mus musculus with 12 samples.

Results

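The hairpins that separated mouse embryonic stem cells (mESCs) keeping UHRF1-GFP in 2i from unsorted mESCs kept in Serum/LIF for 7 days were described from an shRNA kinase screen. A hairpin was included when it reached at least 0.5 CPM (a hairpin's counts scaled to a fixed library total) in 3 or more of the 6 libraries of the comparison, which held for 2906 of the 3243 hairpins in the count table. The remaining 337 hairpins were not tested. The tested hairpins targeted 725 genes.

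All cells were E14 mESCs carrying a UHRF1-GFP transgene, transduced in Serum/LIF with lentiviruses of the TRC shRNA library against mouse kinases. The 2i GFP+ libraries came from cells that were moved to 2i for 7 days, that is N2B27 medium with LIF, 1 µM PD0325901 and 3 µM CHIR99021, and sorted by FACS as the GFP-positive population. The Serum/LIF day 7 libraries came from unsorted cells of the same transduced line that stayed in medium with serum and LIF. The 2i GFP- libraries, sorted from the same 2i cultures as GFP-negative, and the Serum/LIF day 0 libraries, collected when the cultures were divided, were used only for values beside the comparison.

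Each of the 4 groups had 3 libraries, named A, B and C. A single transgenic line was used, the sample titles call each library combined without saying what was combined, and separate infections were not named, so every p-value measures the spread between these libraries. The 2i GFP+ and Serum/LIF day 7 groups differed in medium as well as in sorting, and these cannot be told apart within the comparison. Only integrated hairpins in genomic DNA were counted, so neither knockdown nor any marker of the cells was measured.

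UHRF1 recognises hemimethylated DNA behind the replication fork and brings the maintenance methyltransferase DNMT1 to it. In 2i, PD0325901 inhibits the MEK kinases of the ERK pathway and CHIR99021 inhibits GSK3, mESCs enter naive (ground state) pluripotency, and the UHRF1 protein is degraded by the proteasome. A cell that is GFP+ in 2i still holds the fusion protein, and so does a Serum/LIF cell, in which UHRF1 is not degraded in this way. A hairpin that is more frequent in 2i GFP+ cells than in Serum/LIF day 7 cells is one whose carriers made up a larger share of the cells that kept UHRF1-GFP in 2i than of the cells left in Serum/LIF.

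Nags, Sephs2, Csnk2b and Prpsap2 were the genes that the study followed up, and the antisense sequences of their clones were listed in its supplement. Each clone carries 21 bases, and hairpins to a gene are not always independent of each other. For Sephs2, 2 of the 5 clones targeted nearly the same site. For Prpsap2, 2 such pairs were found among 5 clones. These sequences are shown because several hairpins of a gene can count the same target site more than once; capitals mark the 20 bases that a clone shares with its partner:
Sephs2 TRCN0000075759: tAGAACTTCAATAACGCGAGG
Sephs2 TRCN0000075761: AGAACTTCAATAACGCGAGGc
Prpsap2 TRCN0000075709: AATGTCATCCACAATGATGGc
Prpsap2 TRCN0000075712: tAATGTCATCCACAATGATGG
Prpsap2 TRCN0000075710: TTGCACATCATAGAAGCCAGc
Prpsap2 TRCN0000075711: tTTGCACATCATAGAAGCCAG

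The clones of Csnk2b shared runs of at most 5 bases with each other and those of Nags at most 6 bases. The count table numbers its hairpins without giving clone names, and which number belongs to which clone was not stated in the sources used here, so the sequences are not tied to single values below.

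The 2i GFP+ libraries held 4185076, 2435551 and 4656234 counts, and the Serum/LIF day 7 libraries held 4444780, 4920399 and 5466825. Of the 3243 hairpins, 1868, 1538 and 1906 had at least 1 count in the 2i GFP+ libraries A, B and C, against 3053, 2989 and 3015 in the Serum/LIF day 7 libraries. The groups did not overlap, and the mean difference of 1248 hairpins had a two-sided p of 0.1 in an exact permutation test, the smallest that 3 against 3 libraries allow. Thinning every library to 2435551 counts gave 1861, 1538 and 1894 hairpins in 2i GFP+ cells and 3051, 2983 and 3008 in Serum/LIF day 7 cells, so the gap was as large at equal depth. Each library's 10 leading hairpins took 15.7%, 14.3% and 15.4% of the 2i GFP+ counts, against 5.88%, 5.75% and 5.73% of the Serum/LIF day 7 counts (exact permutation test, two-sided p = 0.1).

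The 2i GFP+ libraries A and C were closer to each other than either was to B. Across the tested hairpins, which are not independent replicates, Spearman's rho of their CPM was 0.94 between A and C, and 0.72 between B and each of the others, while the pairs of Serum/LIF day 7 libraries had 0.97. Presence showed the same division. Among the tested hairpins 413 were found in A and C and not in B, whereas 55 were found only in A and B and 59 only in B and C. Hairpins found in a single library numbered 91 for A, 114 for B and 124 for C.

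Of the 2906 tested hairpins, 285 (9.81%) were enriched in 2i GFP+ cells over Serum/LIF day 7 cells and 926 (31.9%) were depleted, in edgeR's quasi-likelihood test, taking an adjusted p below 0.05 together with a log2 fold change beyond 1 in either direction as a call. The enriched hairpins targeted 232 genes and the depleted hairpins 551 genes. A CPM is a share of a library, so a gain of some hairpins and a loss of others cannot be told apart by it: with TMM scaling the median over the tested hairpins was a log2 fold change of -1.42, and with scaling to the total count it was -2.17 and the calls were 165 enriched and 1068 depleted. Without the 2i GFP+ library B, the test called 489 hairpins enriched and 1384 depleted, among them 272 of the 285 and 922 of the 926.

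The enriched hairpins held 56.2%, 61.5% and 56.2% of all counts in the 2i GFP+ libraries A, B and C. Their mean share was 58.0% ± 3.08 in 2i GFP+ cells and 17.9% ± 0.0865 in Serum/LIF day 7 cells (SD, n = 3 each), and they were chosen for this difference, so it is a description. In the libraries that did not enter the choice, the same hairpins held 22.2% ± 0.189 of the 2i GFP- counts and 17.1% ± 0.437 of the Serum/LIF day 0 counts. The depleted hairpins held 1.44% ± 0.334 of the 2i GFP+ counts, 13.9% ± 0.314 of the 2i GFP- counts, 16.9% ± 0.118 of the Serum/LIF day 7 counts and 17.4% ± 0.109 of the Serum/LIF day 0 counts (SD, n = 3 each).

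The depleted hairpins were of 2 kinds. Of the 926, 738 had no count in any 2i GFP+ library, 48 had counts in 1 library, 6 in 2 libraries and 134 in all 3. For a hairpin without counts the fold change is a lower bound, computed against a floor of 3 counts per library, which covers counting error only since PCR reads carried no molecular identifiers. These bounds ran from 1.39-fold to 790-fold lower in 2i GFP+ cells, with a median of 26.2-fold. The 134 depleted hairpins that remained countable in every 2i GFP+ library had a median log2 fold change of -2.51 (range -6.48 to -1.09), and 40 of them were less than 4-fold lower.

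Whether a hairpin was found at all in 2i GFP+ cells moved with its abundance at the start of the screen. Of the 127 tested hairpins with a mean under 10 CPM at Serum/LIF day 0, 63.8% had no count in any 2i GFP+ library, and the share was 56.1% of 456 hairpins at 10 to 50 CPM, 33.9% of 1018 at 50 to 200 CPM, 5.67% of 1094 at 200 to 1000 CPM and 0.474% of 211 over 1000 CPM. The share of depleted calls over the same classes was 63.8%, 57.0%, 38.0%, 15.1% and 15.6%. The share of enriched calls ran the other way, at 3.15%, 4.39%, 6.88%, 12.9% and 23.7%. The part of starting abundance in the single calls was not tested. Day 0 values given below are plain CPM, without the TMM scaling of the other levels. With 2i GFP+ levels in plain CPM too, 9 of the 285 enriched hairpins had a lower mean in 2i GFP+ cells than at day 0.

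Rare hairpins were not all at a low level where they were found. Among the hairpins at 10 to 50 CPM on day 0, 30.9%, 21.3% and 32.9% were detected in the 2i GFP+ libraries A, B and C, and their median level there was 1.62, 1.69 and 1.82 times their own Serum/LIF day 7 level. Among those at 200 to 1000 CPM, 88.0%, 75.9% and 87.8% were detected, at a median of 0.86, 0.78 and 0.87 times the Serum/LIF day 7 level. These ratios leave out hairpins not detected in the 2i GFP+ library concerned, which raises them more where fewer were detected. The classes therefore cannot be compared by them.

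The hairpins with the smallest p-values among the enriched ones targeted regulators of protein kinase A (PKA), casein kinase 2 (CK2), selenium metabolism, pyruvate oxidation and the AMP-activated kinase family. Pkig hairpin 3270, against an inhibitor protein of PKA, reached 18975, 17765 and 18024 CPM in 2i GFP+ cells, against 239, 201 and 231 CPM in Serum/LIF day 7 cells. The 3 libraries of each group lay close together and far from the other group, with a log2 fold change of 6.35 ± 0.12 (SE; adjusted p = 1.54e-05) and a day 0 level of 262 CPM. The other 4 Pkig hairpins tested included 1 depleted hairpin and no further enriched one.

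Mark2 hairpin 1345, against a kinase that phosphorylates microtubule-associated proteins and sets cell polarity, had 26985, 26584 and 26785 CPM in 2i GFP+ cells and 170, 160 and 270 CPM in Serum/LIF day 7 cells (log2 fold change 7.07 ± 0.27 SE, adjusted p = 0.000183). The highest fold among all enriched hairpins belonged to Nim1k hairpin 1579, listed in the table under E130304F04RIK. Nim1k, a relative of AMP-activated kinase, had 19297, 20455 and 17960 CPM in 2i GFP+ cells and 87.8, 34.1 and 68.8 CPM in Serum/LIF day 7 cells (log2 fold change 8.24 ± 0.46 SE, adjusted p = 0.000627). Nuak2 hairpin 1512, against another kinase of that family, had 3764, 4784 and 3525 CPM in 2i GFP+ cells and 84.3, 89.6 and 123 CPM in Serum/LIF day 7 cells (log2 fold change 5.35 ± 0.27 SE, adjusted p = 0.000431). In all of these the groups were separated by more than an order of magnitude, and the day 0 levels of the Mark2, Nim1k and Nuak2 hairpins were 225, 106 and 74.8 CPM. Each of these was the only enriched hairpin of its gene. Of the tested hairpins, 1 of 3 for Nim1k and 2 of 4 for Nuak2 were depleted, and none of 3 for Mark2. Over all tested hairpins, 9.81% were enriched and 31.9% depleted. In 2i GFP- cells against Serum/LIF day 7 cells the log2 fold changes were 0.61 for Mark2 hairpin 1345, 1.42 for Nim1k hairpin 1579 and 0.67 for Nuak2 hairpin 1512 (adjusted p = 0.128, 0.0305 and 0.138), of which only that of Nim1k passed both thresholds, in a test that called 4.16% of 2981 hairpins enriched and 4.83% depleted. That comparison shares its Serum/LIF day 7 libraries with the first one, so its values are given side by side and not as a separate test.

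Pdk3 encodes one of the kinases that switch off the pyruvate dehydrogenase complex. Its hairpin 1255 had 18788, 22047 and 17349 CPM in 2i GFP+ cells and 674, 619 and 584 CPM in Serum/LIF day 7 cells (log2 fold change 4.95 ± 0.14 SE, adjusted p = 4.02e-05), with 759 CPM at day 0. Another Pdk3 hairpin, 1257, had no count in any 2i GFP+ library and 44.3, 73.8 and 49.2 CPM in Serum/LIF day 7 cells, at least 47.8-fold lower. Eef2k slows translation elongation by phosphorylating elongation factor eEF2. Eef2k hairpin 1246 had 5206, 8313 and 4919 CPM in 2i GFP+ cells and 149, 138 and 128 CPM in Serum/LIF day 7 cells (log2 fold change 5.47 ± 0.29 SE, adjusted p = 0.000529) with 129 CPM at day 0, and hairpin 1247 was enriched as well, with a log2 fold change of 2.06 (adjusted p = 0.00311). Hairpin 1247 was also called enriched in 2i GFP- cells over Serum/LIF day 7 (log2 fold change 1.05, adjusted p = 0.00476), and hairpin 1246 was not (-0.24). In plain CPM, hairpin 1247 had means of 750 in 2i GFP+ cells and 612 in 2i GFP- cells.

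Among the most abundant hairpins of the 2i GFP+ cells was Pik3cb hairpin 1776, against the p110β catalytic subunit of PI3K, with 31062, 47268 and 30618 CPM in 2i GFP+ cells and 1551, 1299 and 1479 CPM in Serum/LIF day 7 cells (log2 fold change 4.65 ± 0.22 SE, adjusted p = 0.000391) and 1350 CPM at day 0. Pip5k1a hairpin 1642, against a kinase that makes the phosphoinositide used by PI3K, had 19449, 20475 and 20481 CPM in 2i GFP+ cells and 5491, 4844 and 5182 CPM in Serum/LIF day 7 cells. Its log2 fold change was smaller, 1.96 ± 0.08 (SE, adjusted p = 0.000183), and it began the screen at 4866 CPM. Clk4 hairpin 747, against a splicing-factor kinase, Mob3b hairpin 3357, against a relative of the proteins that activate NDR kinases, and Mapk6 hairpin 748, against an atypical MAP kinase, had log2 fold changes of 3.07, 2.74 and 2.81 (adjusted p = 0.000307, 0.000391 and 0.000587). Npr2 encodes a natriuretic peptide receptor that makes cyclic GMP, and its hairpin 2789 had a log2 fold change of 4.22 (adjusted p = 0.00068) and a day 0 level of 105 CPM.

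The share of some hairpins had also differed between day 0 and day 7 of Serum/LIF. Csnk2b hairpin 1932, against the regulatory subunit of CK2, had 9336, 8365 and 8372 CPM in 2i GFP+ cells and 345, 323 and 307 CPM in Serum/LIF day 7 cells (log2 fold change 4.74 ± 0.13 SE, adjusted p = 4.02e-05). At day 0 it had stood at 2893 CPM, and in 2i GFP- cells it was called enriched as well, with a log2 fold change of 1.34 over Serum/LIF day 7 (adjusted p = 0.000204). Mapk6 hairpin 748 had 3357, 3150 and 3274 CPM in 2i GFP+ cells and 481, 428 and 486 CPM in Serum/LIF day 7 cells, and 149 CPM at day 0.

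The 4 followed-up genes had 20 hairpins in the table, all of which were tested. Sephs2 makes selenophosphate, the selenium donor for selenocysteine. Sephs2 hairpin 2953 had 3310, 3319 and 3214 CPM in 2i GFP+ cells and 35.3, 35.3 and 36.0 CPM in Serum/LIF day 7 cells (log2 fold change 6.53 ± 0.18 SE, adjusted p = 4.02e-05), having begun at 50.7 CPM. Sephs2 hairpin 2951 had 593, 621 and 611 CPM in 2i GFP+ cells and 7.47, 4.45 and 5.96 CPM in Serum/LIF day 7 cells (log2 fold change 6.67 ± 0.46 SE, adjusted p = 0.0012), a nearly equal fold at a much lower start of 7.44 CPM. The other 3 Sephs2 hairpins were not called. Hairpin 2950 had 289, 923 and 291 CPM in 2i GFP+ cells and 160, 156 and 155 CPM in Serum/LIF day 7 cells without passing the test (adjusted p = 0.0674), hairpin 2954 had 47.2, 456 and 29.9 CPM in 2i GFP+ cells against 490, 546 and 503 CPM in Serum/LIF day 7 cells (adjusted p = 0.312), and hairpin 2952 had an adjusted p of 0.621. In 2950 and 2954 it was library B of the 2i GFP+ cells that stood apart.

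Csnk2b had a further enriched hairpin, 1933, with 1535, 413 and 1344 CPM in 2i GFP+ cells and 24.5, 49.3 and 38.1 CPM in Serum/LIF day 7 cells (log2 fold change 4.88 ± 0.67 SE, adjusted p = 0.00311) and 66.9 CPM at day 0. Csnk2b hairpin 1931 was depleted, with no 2i GFP+ count and 8.15, 10.6 and 19.4 CPM in Serum/LIF day 7 cells, at least 10.9-fold lower. Hairpins 1934 and 1935 were found in only 2 of the 2i GFP+ libraries each and were not called (adjusted p = 0.365 and 0.156).

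Nags makes N-acetylglutamate, the activator of the first step of the urea cycle. A single Nags hairpin was enriched: 2968 had 3778, 4165 and 4297 CPM in 2i GFP+ cells and 546, 534 and 431 CPM in Serum/LIF day 7 cells (log2 fold change 3.02 ± 0.17 SE, adjusted p = 0.000628), having stood at 255 CPM at day 0. Nags hairpins 2965 and 2966 were depleted, with no 2i GFP+ count, at least 133-fold and at least 21.5-fold lower. Hairpins 2967 and 2969 were not called (adjusted p = 0.649 and 0.17).

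Prpsap2 is an associated protein of phosphoribosyl pyrophosphate (PRPP) synthetase, which makes the activated ribose of nucleotides. Prpsap2 hairpin 2947 had 2699, 1704 and 2834 CPM in 2i GFP+ cells and 288, 313 and 236 CPM in Serum/LIF day 7 cells (log2 fold change 3.11 ± 0.28 SE, adjusted p = 0.00302). Prpsap2 hairpin 2948 had 599, 363 and 652 CPM in 2i GFP+ cells and 48.9, 65.7 and 48.6 CPM in Serum/LIF day 7 cells (log2 fold change 3.30 ± 0.44 SE, adjusted p = 0.00311). The day 0 levels of these hairpins were 210 and 41.4 CPM. Hairpin 2945 was depleted, with no 2i GFP+ count, at least 42.5-fold lower, and hairpins 2946 and 2949 were not called (adjusted p = 0.711 and 0.635). Thus in each of these 4 genes only part of the hairpins were enriched, and given the overlapping clones shown above, 2 enriched hairpins to Sephs2 or to Prpsap2 need not be 2 target sites.

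The depleted hairpins with the smallest p-values included Lck hairpin 1916, Tec hairpin 1120 and Cdk6 hairpin 704, with 1091, 442 and 440 CPM at day 0. Lck, a Src-family kinase best known from T cells, had 44.3, 27.9 and 40.2 CPM of its hairpin 1916 in 2i GFP+ cells, against 806, 726 and 872 CPM in Serum/LIF day 7 cells. This hairpin was still counted in every library, with a log2 fold change of -4.42 ± 0.36 (SE, adjusted p = 0.00194). Tec hairpin 1120 had no 2i GFP+ count and 711, 901 and 1155 CPM in Serum/LIF day 7 cells, at least 790-fold lower (adjusted p = 0.00311), and was also depleted in 2i GFP- cells, with a log2 fold change of -2.25 (adjusted p = 0.0027). Csk, which keeps Src-family kinases inactive, gave a hairpin, 1174, with no 2i GFP+ count and 398, 396 and 382 CPM in Serum/LIF day 7 cells, at least 336-fold lower. The adjusted p of 0.00311 recurs below because the adjustment gives the same value to a long run of neighbouring ranks.

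Cdk2 and Cdk6 drive entry into S phase with their cyclins. Cdk6 hairpin 704 was depleted with 44.8, 27.3 and 44.2 CPM in 2i GFP+ cells and 550, 589 and 555 CPM in Serum/LIF day 7 cells (log2 fold change -3.86 ± 0.41 SE, adjusted p = 0.00311), while Cdk6 hairpin 703 was enriched with 2677, 3109 and 2163 CPM in 2i GFP+ cells and 612, 602 and 626 CPM in Serum/LIF day 7 cells (log2 fold change 2.11 ± 0.20 SE, adjusted p = 0.00311). Cdk2 hairpin 701 had 1 count in all 2i GFP+ libraries together and 430, 445 and 317 CPM in Serum/LIF day 7 cells, 3466-fold lower with a 95% counting interval of 622 to 136913.

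Other depleted hairpins with small p-values were directed at unrelated functions. Sbk1 hairpin 3181, against a serine/threonine kinase, had 9.80, 6.67 and 20.1 CPM in 2i GFP+ cells and 558, 512 and 532 CPM in Serum/LIF day 7 cells (log2 fold change -5.44 ± 0.62 SE, adjusted p = 0.00311). Prkag2 hairpin 3033, against a regulatory subunit of AMP-activated kinase, had 22.6, 21.2 and 18.0 CPM in 2i GFP+ cells and 310, 451 and 385 CPM in Serum/LIF day 7 cells (log2 fold change -4.21, adjusted p = 0.00311). Prkg2 hairpin 399, against a cyclic GMP-dependent kinase, had a log2 fold change of -3.33 and Bmpr2 hairpin 267, against a type II BMP receptor, one of -1.84 (adjusted p = 0.00311 for both).

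Pi4ka hairpin 3055, against a kinase that makes phosphatidylinositol 4-phosphate, had no 2i GFP+ count and was at least 473-fold lower. Tnk1 hairpin 1147, against a non-receptor tyrosine kinase, was at least 405-fold lower and Riok2 hairpin 1294, against a kinase of ribosome assembly, at least 347-fold lower, again with no 2i GFP+ count. Pdk2 hairpin 1262 had 2 counts over the 2i GFP+ libraries, 1018-fold lower (95% counting interval 282 to 8412), and Kcnh5 hairpin 3138, against a potassium channel, had 1 count, 2064-fold lower (370 to 81526).

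Hairpins against the kinases that the 2i inhibitors act on, or that act with them, had the lowest median of the 19 gene lists compared. The list, which included Araf, Ksr1, Map2k1, Map2k2, Mapk3 and Gsk3b, had 51 tested hairpins, of which 26 (51.0%) were depleted and 4 (7.84%) enriched, against 31.9% and 9.81% of all tested hairpins. Its median log2 fold change was -3.48 (-3.40 with hairpins without counts at their bound), against -1.42 (-1.38) over all tested hairpins. In 2i GFP- cells against Serum/LIF day 7, 6 (11.8%) of the 51 hairpins tested from the list were depleted and 0 enriched, against 4.83% and 4.16% of the 2981 tested in that comparison.

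Of the Map2k1 hairpins, against MEK1, 3 of 4 were depleted and none enriched. Gsk3b, the target of CHIR99021, had 3 of 5 hairpins depleted and 1 enriched. Gsk3b hairpin 129 had no 2i GFP+ count and 333, 339 and 443 CPM in Serum/LIF day 7 cells, at least 318-fold lower, and was also depleted in 2i GFP- cells with a log2 fold change of -1.46 (adjusted p = 0.00292). Araf, a RAF kinase, had 4 of 10 depleted and 1 enriched.

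Of 22 tested hairpins against FGF receptors and JAK kinases, 8 (36.4%) were depleted and 0 enriched, against 31.9% and 9.81% of all tested hairpins, with a median log2 fold change of -2.19. Fgfr1, the main FGF receptor of mESCs, had 3 of 4 depleted, and both tested hairpins of 4 against Jak1, the kinase bound to the LIF receptor complex, were depleted. The 5 tested hairpins against Fgfr2 included none that passed the test in either direction.

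CK2 was the list with the highest median. It held 14 tested hairpins against Csnk2a1, Csnk2a2 and Csnk2b, of which 6 (42.9%) were enriched and 3 (21.4%) depleted, against 9.81% and 31.9% of all tested hairpins, with a median log2 fold change of 2.20. Csnk2b had been followed up by the study from these same samples, so the count is not independent evidence of a direction. For Csnk2a2, a catalytic subunit, 3 of 4 hairpins were enriched. Csnk2a2 hairpin 2368 had 2974, 3640 and 2947 CPM in 2i GFP+ cells and 1450, 1471 and 1397 CPM in Serum/LIF day 7 cells (log2 fold change 1.15, adjusted p = 0.00311), and hairpins 2365 and 2367 had log2 fold changes of 1.96 and 1.54 (adjusted p = 0.0241 and 0.0229). Hairpin 2367 had 474, 292 and 366 CPM in 2i GFP+ cells and 125, 142 and 123 CPM in Serum/LIF day 7 cells, but 853 CPM at day 0 (292 CPM on average in 2i GFP+ cells on that plain scale), and it was also called enriched in 2i GFP- cells over Serum/LIF day 7, with a log2 fold change of 1.28 (adjusted p = 0.00294). In plain CPM, the mean of hairpin 2368 was 2416 in 2i GFP+ cells and 2717 in 2i GFP- cells. That of hairpin 2367 was 292 and 400, and that of hairpin 2365 was 1226 and 430, in the same order. Of 19 alternative settings, hairpins 2365 and 2367 lost the call in 8 each and hairpin 2368 in 4. Csnk2a1, the other catalytic subunit, had 1 enriched and 1 depleted of 5, its depleted hairpin 2484 with 1 count in 2i GFP+ cells, 722-fold lower (95% counting interval 129 to 28532).

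Casein kinase 1 hairpins, against a family separate from CK2 despite the shared name, gave 4 enriched and 13 depleted of 33 (12.1% and 39.4%, against 9.81% and 31.9% of all tested hairpins). For Csnk1d, 4 of 5 were depleted and all 4 had no 2i GFP+ count. Csnk1d hairpin 1208 had 264, 340 and 312 CPM in Serum/LIF day 7 cells and was at least 261-fold lower in 2i GFP+ cells. Csnk1g3 hairpin 1202 was enriched, with 524, 994 and 658 CPM in 2i GFP+ cells and 76.6, 76.1 and 91.7 CPM in Serum/LIF day 7 cells (log2 fold change 3.15, adjusted p = 0.00311). In plain CPM its mean was 543 in 2i GFP+ cells and 107 in Serum/LIF day 7 cells, against 816 at day 0, and it was also called enriched in 2i GFP- cells over Serum/LIF day 7, with a log2 fold change of 1.25 (adjusted p = 0.0287). Ttbk2 hairpin 1227 had a log2 fold change of 1.23 (adjusted p = 0.00311).

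PKA is held inactive by its regulatory subunits until cyclic AMP binds them. The PKA list gave 5 enriched and 13 depleted of 38 hairpins (13.2% and 34.2%), near the shares of all tested hairpins. The enriched hairpins were 1 each against Pkig and Pkia, inhibitor proteins, Prkar1a and Prkar2a, regulatory subunits, and Prkaca, a catalytic subunit. Prkar1a hairpin 2270 had 1775, 1152 and 1484 CPM in 2i GFP+ cells and 79.8, 52.5 and 65.7 CPM in Serum/LIF day 7 cells (log2 fold change 4.48 ± 0.33 SE, adjusted p = 0.00146), and Pkia hairpin 63 had 2654, 1251 and 2757 CPM in 2i GFP+ cells and 127, 75.8 and 134 CPM in Serum/LIF day 7 cells (log2 fold change 4.31, adjusted p = 0.00311). Prkaca hairpin 58 was higher by less, with a log2 fold change of 1.69 (adjusted p = 0.00194). The list thus had enriched hairpins against genes of opposite action on the enzyme.

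The PI3K, AKT and mTOR list gave 8 enriched and 27 depleted of 83 hairpins (9.64% and 32.5%), also near the shares of all. Pik3cb had the most enriched hairpins within it, 3 of 5: beside hairpin 1776, hairpins 1777 and 1774 had log2 fold changes of 2.30 and 1.37 (adjusted p = 0.00311 and 0.013). Hairpin 1774 lost the call in 7 of the 19 alternative settings. Pik3cb hairpin 1775 was depleted, with no 2i GFP+ count and 348, 528 and 409 CPM in Serum/LIF day 7 cells, at least 366-fold lower. Mtor hairpin 1322, listed under FRAP1, had 2090, 3579 and 2568 CPM in 2i GFP+ cells and 293, 263 and 417 CPM in Serum/LIF day 7 cells (log2 fold change 3.08, adjusted p = 0.00311), while 2 of the 5 Mtor hairpins were depleted. Pik3c2a hairpin 1852 was enriched in 2i GFP+ cells, with a log2 fold change of 4.80 (adjusted p = 0.00311), and in 2i GFP- cells, with one of 3.05 (adjusted p = 0.00204). For Pik3cd and Sgk2, all 3 tested hairpins of each were depleted.

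The inositol phosphate kinases, which build the higher inositol phosphates, gave 10 enriched and 10 depleted of 30 hairpins (33.3% each). Over all tested hairpins the shares were 9.81% and 31.9%. The enriched share of the list was thus higher and its depleted share was near, and neither difference was tested. Ippk and Itpka had 3 of 5 enriched each, and Itpkc, Ip6k1, Ip6k2 and Ip6k3 had 1 each. Itpka hairpin 2306 had 825, 1000 and 722 CPM in 2i GFP+ cells and 95.3, 70.5 and 99.8 CPM in Serum/LIF day 7 cells (log2 fold change 3.26, adjusted p = 0.00311), and hairpins 2308 and 2310 had log2 fold changes of 3.05 and 1.46. Hairpin 2310 lost the call in 8 of the 19 alternative settings. Ippk hairpin 2283 had 3118, 9610 and 2698 CPM in 2i GFP+ cells and 511, 509 and 628 CPM in Serum/LIF day 7 cells (log2 fold change 3.23 ± 0.57 SE, adjusted p = 0.00555), and hairpins 2284 and 2282 were enriched as well. In several of these, library B was the highest of the 2i GFP+ libraries and A and C lay together. Itpk1 had 2 depleted of 5 and none enriched, its hairpin 2249 with no 2i GFP+ count, at least 47.2-fold lower.

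Nucleotide metabolism gave a mixed result. Of 104 tested hairpins against PRPP and nucleotide kinases, 16 (15.4%) were enriched and 33 (31.7%) depleted, against 9.81% and 31.9% of all tested hairpins, with a median log2 fold change of -1.53. Nme3, a nucleoside diphosphate kinase, had 3 of 4 enriched: hairpin 2181 had 2749, 1592 and 2688 CPM in 2i GFP+ cells and 308, 328 and 282 CPM in Serum/LIF day 7 cells (log2 fold change 2.94, adjusted p = 0.00311), and hairpins 2183 and 2185 had log2 fold changes of 4.90 and 3.70 (adjusted p = 0.0101 and 0.00886). Both Nme2 hairpins were depleted. Uck2, which phosphorylates uridine and cytidine, had 4 of 5 depleted.

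Hexose and pyruvate metabolism did not stand apart by counts. The glycolysis and hexose kinases had 6 enriched and 16 depleted of 64 (9.38% and 25%). The pyruvate dehydrogenase kinases had 2 enriched and 6 depleted of 19 (10.5% and 31.6%). All tested hairpins together had 9.81% enriched and 31.9% depleted. Adpgk, which phosphorylates glucose with ADP, had a log2 fold change of 2.48 for its hairpin 2004 (adjusted p = 0.00311). The AMP-activated kinase list, which held the Mark2, Nim1k and Nuak2 hairpins described above, had 9 enriched and 21 depleted of 74 (12.2% and 28.4%), and Mark3 hairpin 1393 added a log2 fold change of 3.57 (adjusted p = 0.00165).

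Among receptors, the Eph family of cell-contact receptors gave 11 enriched and 15 depleted of 62 (17.7% and 24.2%, against 9.81% and 31.9% of all tested hairpins), with a median log2 fold change of -0.24. Ephb4 had 3 of 5 enriched, the strongest being hairpin 1081 with 1958, 5700 and 2319 CPM in 2i GFP+ cells and 216, 222 and 271 CPM in Serum/LIF day 7 cells (log2 fold change 3.82 ± 0.49 SE, adjusted p = 0.00311). The other 2, hairpins 1078 and 1080, both had a log2 fold change of 1.11 (adjusted p = 0.0167 and 0.0215) and lost the call in 9 and 10 of the 19 alternative settings. The receptors for TGF-beta, activin and BMP gave 4 enriched and 14 depleted of 48 (8.33% and 29.2%), with Bmpr2 in both directions, since its hairpin 263 was enriched with 5016, 9567 and 4998 CPM in 2i GFP+ cells and 1210, 1152 and 1329 CPM in Serum/LIF day 7 cells (log2 fold change 2.41, adjusted p = 0.00311). Acvrl1 hairpin 275, against a TGF-beta family receptor, had 451, 324 and 605 CPM in 2i GFP+ cells and 2482, 2297 and 2665 CPM in Serum/LIF day 7 cells (log2 fold change -2.43, adjusted p = 0.00311).

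The cell cycle list gave 13 enriched and 33 depleted of 104 (12.5% and 31.7%), close to the shares of all tested hairpins, 9.81% and 31.9%. Its enriched hairpin with the smallest p was Ccnh 3002, against the cyclin of the CDK-activating kinase, with 6486, 4424 and 6879 CPM in 2i GFP+ cells and 448, 502 and 512 CPM in Serum/LIF day 7 cells (log2 fold change 3.61 ± 0.22 SE, adjusted p = 0.000843). The DNA damage list had 6 enriched and 4 depleted of 27 (22.2% and 14.8%), and none of its hairpins was without 2i GFP+ counts, against 25.6% of all tested hairpins, a share that moved with starting abundance as described above. Chek1 hairpin 150, against the checkpoint kinase CHK1, had a log2 fold change of 2.79 (adjusted p = 0.00412), and Tlk1, a chromatin assembly kinase, had 3 of 5 enriched and its hairpin 3049 depleted, with a log2 fold change of -2.30 (adjusted p = 0.00438). Of the enriched Tlk1 hairpins, 3050 and 3053 lost the call in 8 and 5 of the 19 alternative settings.

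Tyrosine kinases of blood lineages gave 5 enriched and 19 depleted of 51 (9.80% and 37.3%, against 9.81% and 31.9% of all tested hairpins), with a median log2 fold change of -3.13. Beside the depleted Lck and Tec hairpins, Blk hairpin 898 was enriched with 19990, 13103 and 19584 CPM in 2i GFP+ cells and 1921, 1924 and 2092 CPM in Serum/LIF day 7 cells (log2 fold change 3.15 ± 0.19 SE, adjusted p = 0.000843), and Lyn hairpin 1108 had a log2 fold change of 3.41 (adjusted p = 0.00091). The Hippo and NDR list gave 3 enriched and 8 depleted of 29 (10.3% and 27.6%). Stk3 hairpin 2386 of this list had a log2 fold change of 4.24 (adjusted p = 0.00311). The list of RIO and translation kinases gave 5 enriched and 9 depleted of 33 (15.2% and 27.3%). The list of selenophosphate synthetases and Nags gave 3 enriched and 2 depleted of 15 (20% and 13.3%), with no call for Sephs1. That list holds genes the study had followed up from these samples.

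Hairpins to the same gene could go in opposite directions. Both an enriched and a depleted hairpin were found for 150 genes, which is 64.7% of the 232 genes that had any enrichment, while 551 (76.0%) of the 725 genes had a depleted hairpin and 92 had no call. At least 2 enriched hairpins were found for 43 of the 725 genes and at least 3 for 10 genes, which were Itpka, Kcnh2, Ephb4, Ippk, Csnk2a2, Nme3, Pik3cb, Npr2, Pomk and Tlk1. Over all tested hairpins 9.81% were enriched, and how many genes would reach these numbers by that share alone was not tested. The count of 43 was 111 without the 2i GFP+ library B and 22, 23 and 24 without the Serum/LIF day 7 libraries A, B and C. Kcnh2 encodes a potassium channel, and its hairpin 2908 had 4897, 4260 and 5215 CPM in 2i GFP+ cells and 957, 1189 and 1219 CPM in Serum/LIF day 7 cells (log2 fold change 2.09, adjusted p = 0.00182). Pomk, an O-mannose kinase of dystroglycan, had hairpins 2642, 2669 and 2696 at log2 fold changes of 1.64, 1.99 and 2.86. Pomk hairpin 2696 and the enriched Kcnh2 hairpin 2909 each lost the call in 5 of the 19 alternative settings.

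Among the 705 genes with at least 2 tested hairpins, Npas1 was the only one with every tested hairpin enriched, 2 of 2. It had 4 hairpins in the table, of which the others were not tested, and Npas1 is singled out here after its values were seen. Npas1 encodes a transcription factor, and its hairpin 3436 was near the lower limit of the table, with 4.75, 1.21 and 9.26 CPM in 2i GFP+ cells and 0.34, 0.31 and 0.43 CPM in Serum/LIF day 7 cells. These Serum/LIF day 7 levels lay under the 0.5 CPM of the filter, so this hairpin was tested because of its 2i GFP+ levels. Its filter and its call thus rest on the same counts, and 2 of 2 cannot be read as agreement between hairpins. All tested hairpins were depleted for 25 genes, of which 13 had 2 tested hairpins, 11 had 3, and Git2 had 4. With 31.9% of all tested hairpins depleted, the number of such genes that this share alone would give was not tested. Git2, an ARF GTPase-activating protein, had no count of any of its hairpins in the 2i GFP+ libraries. Its bounds ran from at least 2.19-fold to at least 147-fold lower. Of the 926 depleted hairpins, 738 had no 2i GFP+ count and could pass the filter only through Serum/LIF day 7. Such calls, including those of Git2, thus rest on the same counts as the filter and cannot be read as agreement between hairpins.

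The genes with 4 or more depleted hairpins and none enriched included, beside Git2, Csnk1d and Uck2, Akap9, Hipk2, Egfr, Trib3, Wnk1, Pax8, Dyrk1b and Neo1. For Egfr, the EGF receptor, 4 of 6 hairpins were depleted, none of them with a 2i GFP+ count. All 6 lay below Serum/LIF day 7 in every 2i GFP+ library, which held for 53.4% of all tested hairpins. The 4 depleted Egfr hairpins had 32.9 to 166 CPM at day 0. Over all tested hairpins 31.9% were depleted and 25.6% had no 2i GFP+ count, a share that moved with starting abundance as described above. The number of genes that these shares alone would give was not tested. Hipk2, a nuclear kinase, kept countable hairpins: 605 had 36.8, 38.2 and 18.0 CPM in 2i GFP+ cells and 351, 369 and 473 CPM in Serum/LIF day 7 cells (log2 fold change -3.68, adjusted p = 0.00314). Wnk1 regulates ion transport, and its hairpin 2570 had no 2i GFP+ count and 265, 232 and 223 CPM in Serum/LIF day 7 cells, at least 206-fold lower.

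A high level was not by itself a change. The Serum/LIF day 7 cells' most abundant hairpin, Ripk3 272, had 6917, 7665 and 6333 CPM in 2i GFP+ cells and 9282, 9209 and 9151 CPM in Serum/LIF day 7 cells, a log2 fold change of -0.40 that did not pass the fold limit. Acvr1 hairpin 257 had 11459, 11751 and 10110 CPM in 2i GFP+ cells and 7033, 7125 and 6886 CPM in Serum/LIF day 7 cells, a log2 fold change of 0.66 that did not pass it either. Acvrl1 hairpin 274 differed among the 2i GFP+ libraries themselves, at 3679, 583 and 3033 CPM, against 5004, 5010 and 5360 CPM in Serum/LIF day 7 cells (adjusted p = 0.234).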

How the data were processed

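The authors amplified integrated hairpins from genomic DNA with PCR, read them on a NextSeq 500 instrument, mapped reads with Bowtie2 under standard parameters and deposited the counts per hairpin, not normalised, as a single table. Versions were not given in the sources used here. Of 3243 hairpins, 2941 carried a current gene symbol, 283 matched a RefSeq synonym and 19 kept the table's name. Counts of the 6 libraries were scaled by TMM and fitted with edgeR 4.0.16 (R 4.3.3) by glmQLFit and glmQLFTest for hairpins with at least 0.5 CPM in 3 libraries, with Benjamini-Hochberg adjustment over all 2906. Levels are TMM-scaled CPM. Each SE was the absolute log2 fold change over the root of the F statistic. Intervals and floors cover counting error only. 2i GFP- libraries were tested against Serum/LIF day 7 in the same way.

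Alternatives were total count, upper quartile, RLE and TMMwsp scaling, no filter, a filter at 10 CPM, exactTest (the methods' test), DESeq2 1.42.0, robust fitting, all 4 groups in 1 fit, an adjusted p of 0.01, no fold limit, a replicate block and each library left out. The fit was tested on simulated data. Members, gene lists and the rule for named hairpins were chosen with earlier results of these data known. The rule names the 15 enriched and 15 depleted hairpins with the smallest p and no overlap, the 6 such depleted hairpins counted in every library, all hairpins of the 4 followed-up genes, up to 4 called hairpins per list, the called hairpins of genes with 3 or more enriched, or 4 or more depleted and none enriched, and the 5 most abundant hairpins of each group. Results for some genes that this rule names are not reported here.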

Additional observations from a re-analysis of the deposited data

Results flagged for a closer look

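Among the named hairpins, 22 moved one way in all 3 2i GFP+ libraries and the opposite way in all 3 2i GFP- libraries, both against all 3 Serum/LIF day 7 libraries; the difference between these effects was not tested, and the shared Serum/LIF day 7 libraries enter both. Such opposite moves were found for 218 (7.53%) of the 2896 hairpins tested in both comparisons and for 12.4% of the 178 named hairpins among them, which were chosen for their calls in 2i GFP+ cells. Only 4 of the 22 were called in 2i GFP- cells (Nme3 hairpin 2181, Csnk1g1 hairpin 1240, Mob3c hairpin 3317 and Sephs2 hairpin 2952), and the 2i GFP- values of the other 18 did not pass the test together with the fold limit. In the following, the log2 fold change in 2i GFP+ cells comes first and that in 2i GFP- cells second. Of those higher in 2i GFP+ cells, Mapk6 hairpin 748 had 2.81 and -0.35, Npr2 hairpin 2789 had 4.22 and -1.31, Prkaca hairpin 58 had 1.69 and -0.51, and Nme3 hairpin 2181 had 2.94 and -1.01. Prpsap2 hairpins 2947 and 2948 had 3.11 and 3.30 in 2i GFP+ cells, and -0.54 and -0.85 in 2i GFP- cells. Itpka hairpins 2306 and 2308 had 3.26 and 3.05 in 2i GFP+ cells and -0.66 in 2i GFP- cells for both. Itpkc hairpin 2318 had 2.03 and -0.25, Ip6k3 hairpin 2930 had 1.36 and -0.25, Kcnh2 hairpin 2908 had 2.09 and -0.58, and Pomk hairpin 2669 had 1.99 and -0.39. Tlk1 hairpins 3051 and 3050 had 1.31 and 1.29 in 2i GFP+ cells, and -0.51 and -0.33 in 2i GFP- cells.

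Of those lower in 2i GFP+ cells, most had no 2i GFP+ count, where a fitted fold change depends on the prior count and is no bound. Csnk1d hairpin 1208 had fitted values of -13.49 and 0.45 (at least 261-fold lower in 2i GFP+ cells), Tyk2 hairpin 2411 had -10.17 and 0.68 (at least 26.2-fold lower), Fgfr1 hairpin 817 had -9.03 and 1.39 (at least 11.9-fold lower), Egfr hairpin 2843 had -11.34 and 0.63 (at least 58.9-fold lower), and Mob3c hairpin 3317 had -9.91 and 2.03 (at least 21.8-fold lower). Csnk1g1 hairpin 1240 and Wnk1 hairpin 2557, with 1 count each in 2i GFP+ cells, had -10.01 and -9.95, and 1.03 and 0.65 in 2i GFP- cells. Sephs2 hairpin 2952, which was not called in 2i GFP+ cells, had -1.11 and 1.54.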

How the results depend on the processing

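The number of enriched hairpins, 285, was 165 with total count scaling, 86 with the replicate block, 188 at an adjusted p of 0.01, and 194 to 489 with 1 library left out (489 without 2i GFP+ B). Of 926 depleted hairpins, the block called 5 (334 lower at an unadjusted p under 0.05). Same-lettered deviations from the group means correlated at 0.02, -0.04 and -0.02 for A, B and C. This cannot settle whether the letters pair the libraries, since the 2i GFP+ libraries differed far more among themselves than those of Serum/LIF day 7. The 43 genes with at least 2 enriched hairpins became 18 with total count scaling, 5 with the block, 22 at an adjusted p of 0.01, and 22 to 111 with 1 library left out. The median log2 fold change of -1.42 was -1.61 with RLE, -2.17 with total count, -1.77 with no filter, -1.60 in DESeq2, -2.42 with the block, -1.13 at 10 CPM, and -1.71 to -1.40 with 1 library left out. In 2i GFP- cells, 144 hairpins were depleted and DESeq2 called 239. Leaving out a library gave 54 to 249 depleted (249 without 2i GFP- B, and 56, 54 and 57 without Serum/LIF day 7 A, B and C) and 80 to 143 enriched, with 124 when all were kept. The gap in the share of the most abundant hairpins, 9.33 points for 10, was 18.1 for 50. The other alternatives kept each count within 1.5 times. Of 3388 values for 179 named hairpins, 3143 kept direction and side of the thresholds, 235 lost the call (120 with the block), 10 gained it and 0 reversed. Depth limits what can be said of the 745 tested hairpins without a 2i GFP+ count, which have only a bound.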

Other observations

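Among hairpins found in a single 2i GFP+ library, those of library B reached the highest level. Library B in turn lacked 413 hairpins that A and C shared, which had a median of 64.0 CPM there and reached 3707 CPM. The 6 hairpins given here, the 2 highest of those found in a single library, for each library, were chosen after their values were seen. Skp2 hairpin 3336, against an F-box protein of the SCF ubiquitin ligase, had 3649 counts (2212 CPM) in 2i GFP+ library B and none in A or C, against 29.8 ± 5.15 CPM in Serum/LIF day 7 cells (SD, n = 3), with an adjusted p of 0.305. Per3 hairpin 3443, against a circadian clock protein, had 2373 counts (1439 CPM) in library B only, against 227 ± 27.7 CPM in Serum/LIF day 7 cells (adjusted p = 0.785). Hairpins found only in A or only in C had low levels. All of them lay below the median of 385 CPM over hairpins found in all 3 libraries. In library A only, Rps6kc1 hairpin 3036 had 76.0 CPM and Bub1 hairpin 190 had 62.4 CPM, against 56.9 ± 4.54 and 421 ± 59.0 CPM in Serum/LIF day 7 cells. In library C only, Amhr2 hairpin 323 had 92.4 CPM and Dclk2 hairpin 1507 had 80.7 CPM, against 1.89 ± 2.10 and 146 ± 17.9 CPM in Serum/LIF day 7 cells. Bub1 hairpin 190 and Dclk2 hairpin 1507 thus lay below their own Serum/LIF day 7 levels. None of the 6 passed the test.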
